A study of Mus musculus with 13 samples.

Results

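Testicular macrophage and leukocyte genes were followed here as a set of 46 genes taken by symbol from a table of 25965 genes. The set holds macrophage, antigen-presenting, lymphocyte and chemokine genes. Of the 46, 45 were found under the listed symbol and Adgre1, which encodes the F4/80 antigen, under its older symbol Emr1. A mean of at least 1 RPM (the reads of a gene per fixed number of reads in the library) over the 13 libraries was reached by 39 of them, and these 39 were tested. The 7 others (Lyz1, Gpnmb, Ccl2, Ccl7, Ccr2, Ciita and Cd3e) were too low for a test, and their values are given with their group.

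Macrophages of the testis lie among the Leydig cells of the interstitium and around the seminiferous tubules. They depend on signalling through the receptor Csf1r by its ligands Csf1 and Il34, and they clear debris, present antigen on MHC class II molecules and act on steroid-making and germ cells nearby. Lymphocytes are sparse in the healthy testis, and tubules are closed to leukocytes by the blood-testis barrier.

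Whole testes without the tunica albuginea were taken from mice aged 15 weeks, and RNA was sequenced by Smart-seq2, a protocol that copies full-length polyadenylated transcripts. The study asked what Wfdc15a, a gene of the WAP four-disulfide core family, does in spermatogenesis. Its control group was 3 WT and 4 heterozygous (Het) mice (n = 7), and its knockout group was 6 KO mice. The titles carry a number after the genotype (WT2, Het1, Het2, KO1 and KO2). The 3 WT libraries carry number 2, Het replicate 1 carries number 1, Het replicates 2 to 4 carry number 2, KO replicates 1 to 3 carry number 1 (KO1) and KO replicates 4 to 6 carry number 2 (KO2). Not given in the sources used here: what that number stands for, how the allele was made and which part of the gene is missing. The design text counts mice, so each library was taken as 1 mouse.

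Reads assigned to genes ranged from 4.22 to 10.1 M per library, with a median of 6.81 M. One read was worth 0.0899 to 0.222 RPM, and a count of 0 allows up to 3 reads, or 0.270 to 0.665 RPM. That limit covers counting error only, since PCR copies carried no molecular identifiers. Controls had 65.5 ± 12.5 RPM of Wfdc15a (SD, n = 7), compared with 28.1 ± 7.60 RPM (n = 3) in the libraries labelled KO1 and 61.2 ± 17.7 RPM (n = 3) in those labelled KO2. The KO1 libraries (19.4 to 33.4 RPM) lay below all controls (53.5 to 85.8 RPM), whereas the KO2 libraries (48.1 to 81.3 RPM) overlapped them. The level of the gene therefore separated only the libraries labelled KO1 from the controls. Every difference below is given as log2 of RPM + 1, with a standard error (SE), and adjusted p-values are from limma with Benjamini-Hochberg adjustment over 16235 genes, with 0.05 as the threshold. Adding 1 RPM understates the fold change of genes near or below that level.

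Most macrophage genes were higher in the libraries labelled KO than in controls, and the median difference was larger in the KO1 than in the KO2 libraries. With all 6 KO libraries together, 24 of the 39 tested genes were called higher and 3 lower (Aif1, Cd33 and Cd3d), while 12 were not called. Of the 24, Fcgr1, Ms4a6c and Ccl8 averaged under 1 RPM in controls and passed the filter only through their KO values. Over all genes tested, 18.4% were called higher and 6.18% lower. The median difference of the 39 genes was 0.86, against 0.16 over all genes. For KO1 alone, 25 were called higher and the same 3 lower, against 17% and 5.74% of all genes, and the median was 1.12 against 0.15. For KO2 alone, 8 were called higher and 2 lower (Aif1 and Cd3d), against 7.8% and 4.64% of all genes, and the median was 0.59 against 0.17. The KO1 and KO2 comparisons share the 7 control libraries. Of these, only Het replicate 1 carries title number 1. Genotype and title number therefore cannot be cleanly told apart in the KO1 comparison.

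The 8 genes called higher in KO2 were Lyz2, Tyrobp, Fcer1g, Fcgr1, Folr2, Trem2, Csf1r and Cxcl12. Under Leydig scaling none of these 8 calls in KO2 passed the threshold (adjusted p from 0.0533 to 0.738), and the value of Csf1r turned to -0.23. Leaving out KO replicate 5 left 3 members called higher and 1 lower in KO2 (3.12% and 3.3% of all genes), and leaving out KO replicate 6 left 5 called higher (4.8% of all genes). A direct comparison of KO2 with KO1 called 1 member lower, the chemokine Ccl8, and none higher, where 0.0986% of all genes were called lower and 0.0801% higher. Of the 39 genes, 28 were lower in KO2 than in KO1 (71.8%, against 53.6% of all genes), with a median difference of -0.47 against -0.03 over all genes. At an unadjusted p under 0.05, limma placed 13 members lower in KO2 and 1 higher, Fcgr3, against 6.63% of all genes lower and 5.68% higher. Apart from Ccl8, no member's difference between KO1 and KO2 passed the adjusted threshold.

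**Figure D1:**
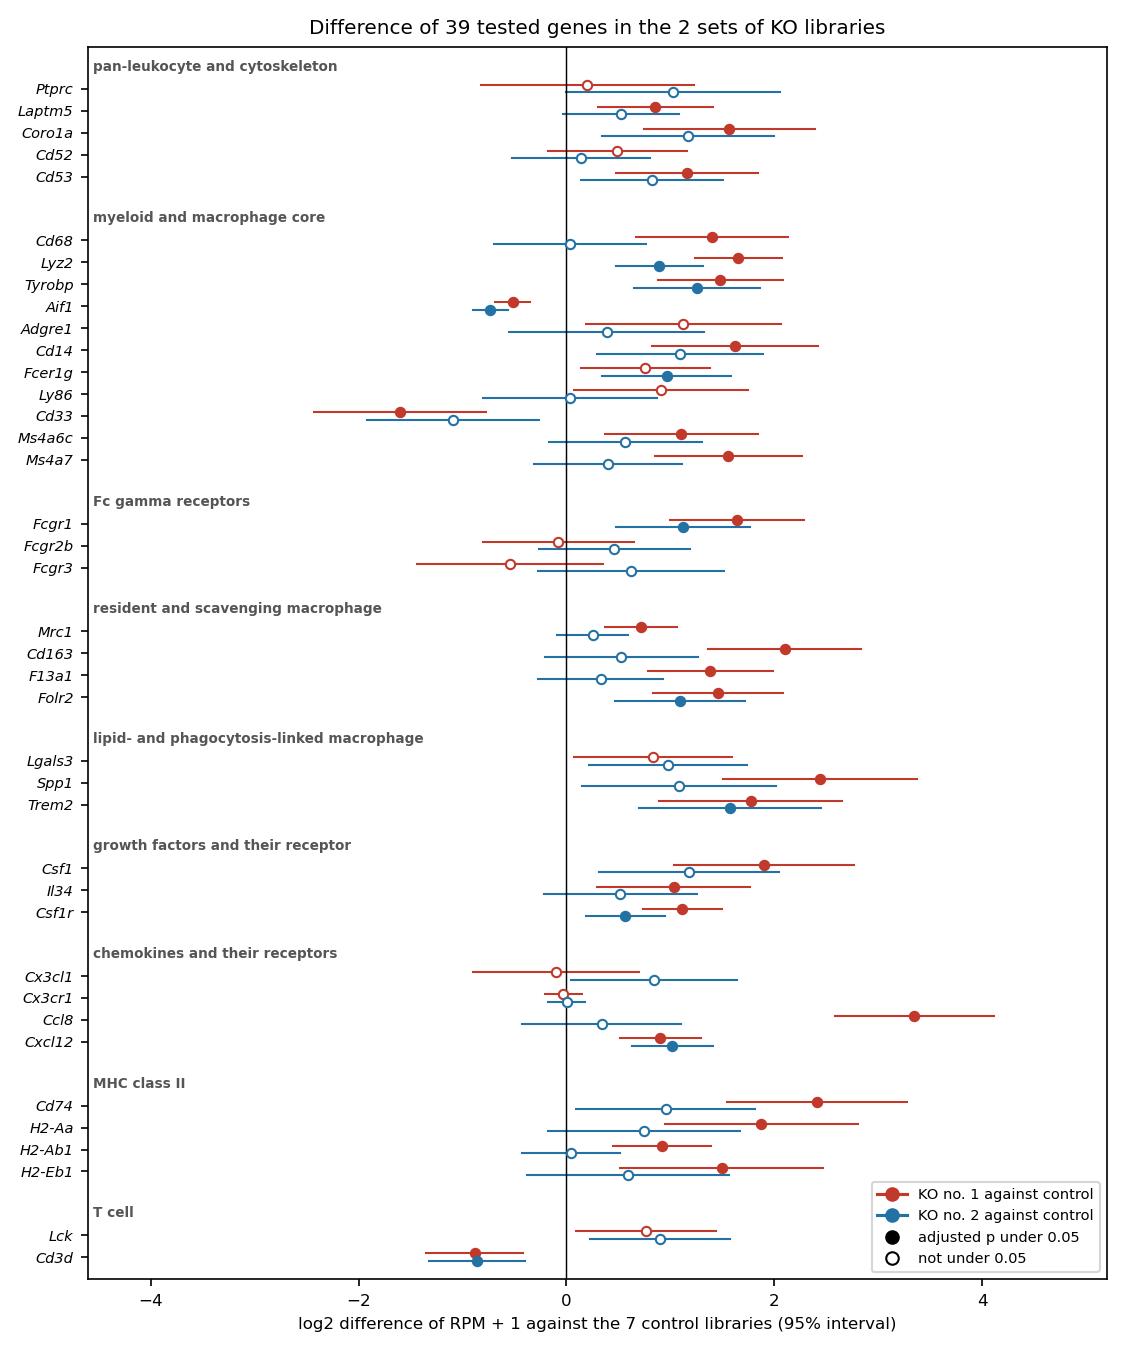
Log2 difference of RPM + 1 against the 7 control libraries for the 39 tested genes, grouped by role, in the 3 KO1 libraries (red) and the 3 KO2 libraries (blue). Bars are 95% intervals and filled points have an adjusted p under 0.05. Of the 39 genes, 25 lie to the right with a filled red point and 8 with a filled blue one, and Ccl8 has the widest gap between the colours, 3.34 against 0.34.

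In a bulk sample, more cells of a type and more RNA per cell cannot be told apart. Markers of Leydig and Sertoli cells moved in the same direction in the same libraries. Of 11 Leydig cell markers 9 were called higher (median 0.88), and of 14 Sertoli cell markers 10 were (median 0.80). The summed level of the Leydig markers was 2605 to 4601 RPM in controls, 7379 to 10455 in KO1 and 6110 to 6510 in KO2, and that of the Sertoli markers was 1520.4 to 2535, 3816 to 4148 and 2686 to 3461 RPM. Of 15 late spermatid markers 14 were called lower (median -1.05), and their sum was 15032 to 19710.4 RPM in controls, 6794 to 9961 in KO1 and 6330.2 to 8595 in KO2. Endothelial markers (3 of 11 called higher, 6 above 0, median 0.30) were mixed in direction. So were peritubular and smooth muscle markers (2 called higher and 1 lower of 7, 5 above 0, median 0.47). The part of these shifts in the results on leukocyte genes was not tested, but the count of calls could be recomputed on other scales. Scaled to Sertoli markers, 11 of the 39 genes were called higher and 4 lower, where 1.61% of all genes were called higher and 48.5% lower. Scaled to Leydig markers, 8 were called higher and 6 lower (0.832% and 63.6% of all genes). Scaled to endothelial markers, 14 and 3 were (3.35% and 11% of all genes). The median difference of all genes was -0.50, -0.69 and -0.17 under Sertoli, Leydig and endothelial scaling.

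**Figure D2:**
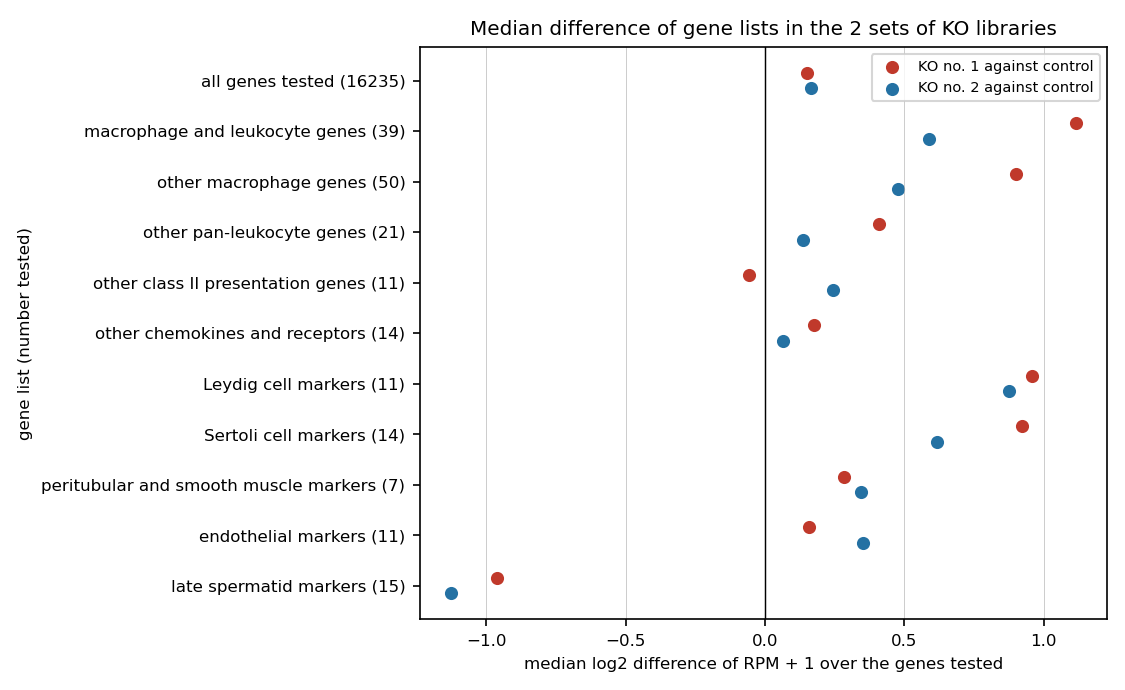
Median log2 difference of RPM + 1 against control over the tested genes of each list, in KO1 (red) and KO2 (blue), with the number of genes tested in brackets. The macrophage and leukocyte genes lie at 1.12 and 0.59, Leydig cell markers at 0.96 and 0.88, and late spermatid markers at -0.96 and -1.13.

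The balance of calls differed between scalings. Of all genes called in KO against control, 74.9% were higher on the deposited scale, 49.9% after median-of-ratios scaling and 48.8% after quantile normalization. The median of all genes moved from 0.16 to 0.02 and -0.01. Both of these other scalings centre the libraries on a common middle, so their near-even balance was partly set by the method. The cause of the balance on the deposited scale was not tested. On these scales 17 and 15 of the 39 members were called higher, against 10.5% and 9.01% of all genes, and 3 lower on both, against 10.6% and 9.44%. With WT alone as control 10 members were called higher (6.05% of all genes), and with the number 2 libraries alone 7 were (5.36%). With title number as a term 17 were (15.7%), and the calls of Ccl8, Mrc1, F13a1, H2-Aa, Lgals3, Ms4a6c and Ms4a7 were lost (adjusted p from 0.0539 to 0.134). Number 1 holds a single control, Het replicate 1, so a comparison within it has no spread among controls. Across these settings, other pseudocounts and filters (where the gene was tested), limma-voom, Het alone as control, title number as a term, a replicate block and fits with 1 library left out, 10 of the 27 calls kept their side of the threshold, those of Lyz2, Tyrobp, Fcgr1, Folr2, Spp1, Trem2 and Cxcl12 as higher and of Aif1, Cd33 and Cd3d as lower. Of the 10, Fcgr1 passed the filter on low values only through its KO values. The marker scalings are not among those settings. Under Leydig scaling the calls of Lyz2 (0.34, adjusted p = 0.0907), Folr2 (0.55, adjusted p = 0.0589) and Cxcl12 (0.03, adjusted p = 0.881) were lost, and that of Cxcl12 also under Sertoli scaling (0.24, adjusted p = 0.263).

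The groups did not overlap for a smaller number of genes. Every KO library lay above all controls for 8 members (Lyz2, Tyrobp, Cd14, Fcgr1, Folr2, Trem2, Csf1r and Cxcl12), as for 5.06% of all genes, and below all controls for 2 (Aif1 and Cd3d), as for 2.89%. Of these, Fcgr1 passed the filter only through its KO values. Every KO1 library lay above all controls for 20 members and below for 2, against 14.7% and 5.38% of all genes. Every KO2 library did so for 10 and 3, against 9.04% and 4.79%.

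Between heterozygous and wild-type controls limma called 0 members, as it called 0.0% of all genes in both directions. At an unadjusted p under 0.05 there were 4 members, Lyz2, Cd14, F13a1 and Cx3cl1, all lower in Het, against 4.4% of all genes lower and 1.49% higher. The median difference of the 39 genes was -0.27, against -0.04 over all genes.

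**Figure D3:**
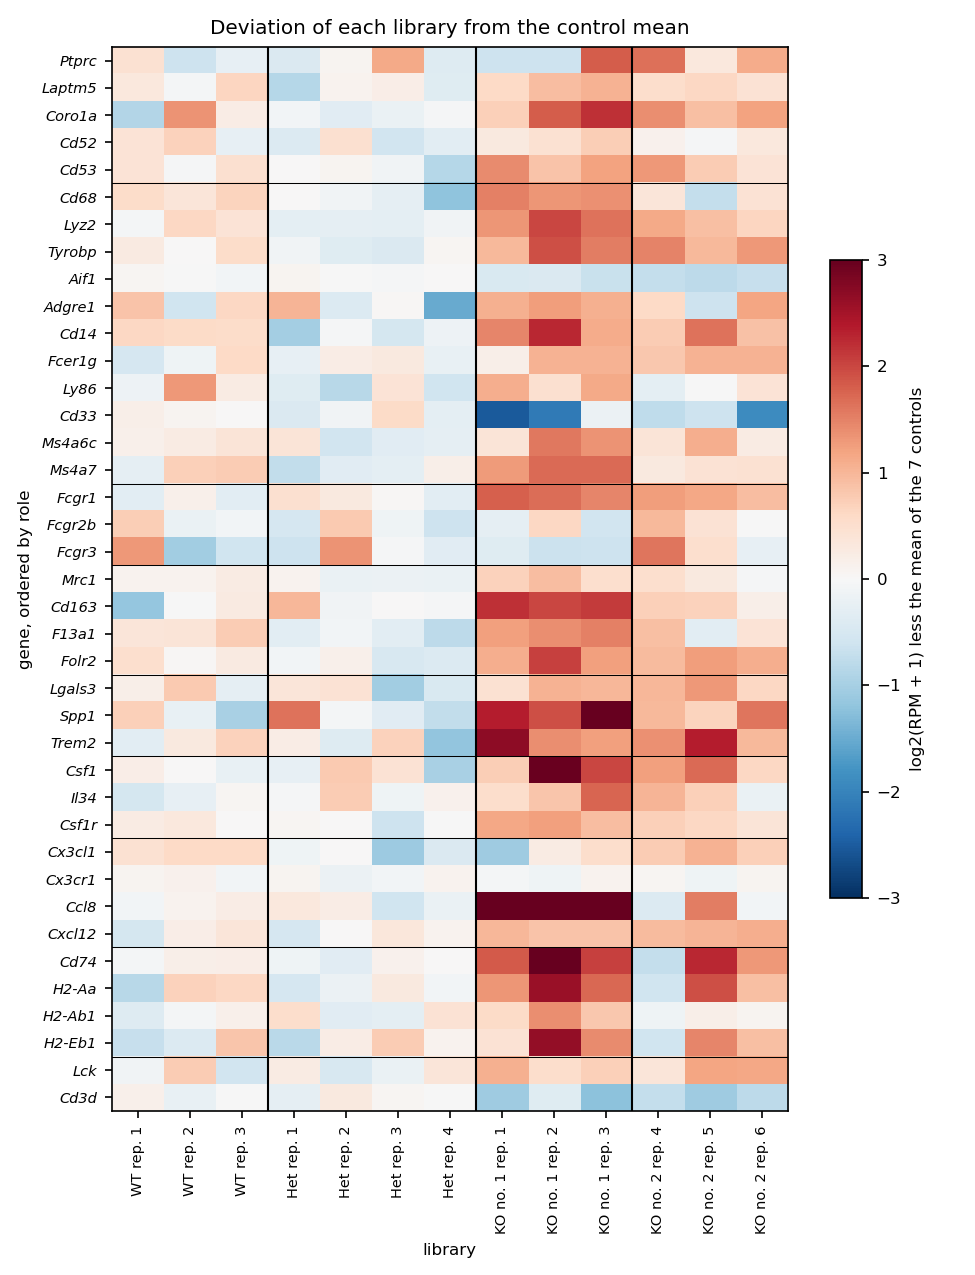
Log2(RPM + 1) of the 39 tested genes in each of the 13 libraries, less the mean of the 7 controls, with genes ordered by role. The colour scale ends at -3 and 3. Red cells fill most of the 3 KO1 columns, Ccl8 is darkest in the KO1 columns, and KO replicate 4 is pale or blue for the 4 MHC class II genes.

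The pan-leukocyte genes were low throughout, and 3 of 5 were called higher. Coro1a, an actin-binding protein of leukocytes, stood between 0.304 and 5.10 RPM in the controls, with a median of 1.26. It reached 2.94, 7.46 and 9.98 RPM in KO1 and 5.32, 3.49 and 4.59 RPM in KO2, so that 3 of 6 KO libraries lay above all controls. The difference was 1.37 (SE 0.32, adjusted p = 0.0038), with 1.57 in KO1 (adjusted p = 0.0072) and 1.17 in KO2 (adjusted p = 0.058). Without KO replicate 3 the KO1 call was lost (1.26, adjusted p = 0.0705).

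Cd53, a tetraspanin of leukocyte membranes, was at 1.20 ± 0.593 RPM (n = 7) in controls, 3.80 ± 0.889 (n = 3) in KO1 and 2.88 ± 1.21 (n = 3) in KO2. It was higher by 0.99 (SE 0.26, adjusted p = 0.009), and 5 of 6 KO libraries exceeded all controls. The KO1 call (1.16, adjusted p = 0.014) was lost without KO replicate 1 (adjusted p = 0.0664) or replicate 3 (adjusted p = 0.0579). Laptm5, a lysosomal membrane protein of blood cells, rose by 0.69 (SE 0.22, adjusted p = 0.024). Its values ran from 3.91 to 12.9 RPM in controls and from 10.9 to 17.2 RPM in the KO libraries. The call was lost without Het replicate 1 or 4 or KO replicate 2 or 3 (adjusted p from 0.0501 to 0.0623), and its sign turned under Leydig scaling (-0.17). In KO1 alone it rose by 0.86 (adjusted p = 0.025), a call lost without KO replicate 2 (adjusted p = 0.0854) or 3 (adjusted p = 0.115).

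The 2 other pan-leukocyte genes were not called. Ptprc, which encodes CD45, the tyrosine phosphatase on all nucleated blood cells, stood at 0 to 2.34 RPM in controls. It was at 0, 0 and 4.42 RPM in KO1 and 3.77, 0.911 and 2.30 RPM in KO2. Its difference was 0.61 (95% interval -0.24 to 1.47, adjusted p = 0.29), and at most 27 reads in a library fell on it. Cd52, a small glycosylated surface peptide of lymphocytes and monocytes, differed by 0.31 (-0.22 to 0.85, adjusted p = 0.40), with 2.54 ± 1.27 RPM in controls (n = 7) and 3.24 ± 0.802 in KO (n = 6). Cd52 overlaps Aim1l in the deposited table, and the strand of counting is not known.

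Among 11 tested genes of the myeloid and macrophage core, 6 were called higher and 2 lower. Lyz2, the lysozyme of macrophages and neutrophils, was the most abundant of those that rose. Its controls ran from 21.6 to 42.1 RPM with a median of 25.1. The KO1 libraries stood at 68.9, 112 and 85.2 RPM and the KO2 libraries at 60.3, 51.0 and 42.8 RPM. All 6 lay above every control, KO replicate 6 by the smallest margin. The difference was 1.27 (SE 0.20, adjusted p = 0.00011), a 2.42-fold change of RPM + 1. It was 1.66 in KO1 (adjusted p = 1.8e-05) and 0.89 in KO2 (adjusted p = 0.0059). KO2 was lower than KO1 by an estimate of -0.76, which missed the threshold (95% interval -1.26 to -0.26, adjusted p = 0.19). Lyz1, its near-identical neighbour made by Paneth and some myeloid cells, was too low to test (0.256 ± 0.192 RPM in controls and 1.22 ± 0.610 in KO), and reads can be split between the pair.

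Tyrobp, also called DAP12, is the signalling adaptor of many myeloid receptors, Trem2 among them. It stood at 1.51 to 3.92 RPM in controls (median 2.41), at 5.60, 11.8 and 8.83 RPM in KO1 and at 8.42, 5.62 and 7.35 RPM in KO2. Every KO library was above every control. The rise was of 1.37 (SE 0.23, adjusted p = 0.00025), with 1.48 in KO1 (adjusted p = 0.0011) and 1.25 in KO2 (adjusted p = 0.0068), and KO2 and KO1 differed by an estimated -0.23 (95% interval -0.94 to 0.49). Fcer1g, the gamma chain that carries the signal of Fc receptors, rose by 0.86 (SE 0.24, adjusted p = 0.011). Its level was 2.84 ± 1.04 RPM in controls, 5.55 ± 2.01 in KO1 and 6.29 ± 0.652 in KO2. It was called in KO2 (0.96, adjusted p = 0.037) and not in KO1 (0.76, adjusted p = 0.071), and the difference between them was 0.21 (95% interval -0.53 to 0.94). The KO2 call was lost without any 1 of WT replicates 1 and 2, Het replicates 1 and 4 and KO replicates 4 to 6 (adjusted p from 0.0504 to 0.129).

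Cd14, the co-receptor for bacterial lipopolysaccharide, was at 0 to 2.12 RPM in controls, at 4.62, 8.82 and 3.43 RPM in KO1 and at 2.44, 5.31 and 2.75 RPM in KO2. The groups did not overlap. The difference was 1.36 (SE 0.31, adjusted p = 0.0036), with 1.62 in KO1 (adjusted p = 0.0046) and 1.09 in KO2 (adjusted p = 0.066). Ms4a6c and Ms4a7, membrane-spanning proteins of monocytes and macrophages, rose by 0.83 (adjusted p = 0.041) and 0.98 (adjusted p = 0.03). Ms4a7 stood at 1.22 ± 0.909 RPM in controls, 5.17 ± 0.957 in KO1 and 1.74 ± 0.161 in KO2. In KO1 both were called (1.10, adjusted p = 0.029, and 1.56, adjusted p = 0.0026). Their calls over all 6 KO libraries were each lost without any 1 of 7 libraries. For Ms4a6c these libraries were WT 1, Het 2 to 4, and KO 2, 3 and 5 (adjusted p from 0.0506 to 0.103). For Ms4a7 they were WT 1, Het 1 to 3 and KO 1 to 3 (adjusted p from 0.0542 to 0.0822). The KO1 call of Ms4a6c was lost without KO replicate 2 (adjusted p = 0.154) or 3 (adjusted p = 0.122).

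Cd68, a lysosomal glycoprotein widely used to stain macrophages, was high in KO1 and not in KO2. Its controls ran from 1.35 to 7.56 RPM, KO1 stood at 14.4, 12.5 and 12.9 RPM, and KO2 at 5.98, 2.28 and 6.31 RPM. KO1 lay above all controls and KO2 within them. The difference was 1.40 in KO1 (SE 0.35, adjusted p = 0.0067), 0.03 in KO2 (95% interval -0.70 to 0.76) and 0.72 over all KO libraries (adjusted p = 0.14). KO2 against KO1 gave -1.37 (95% interval -2.24 to -0.51, adjusted p = 0.18). Adgre1 also had its highest mean in KO1, without a call, with 9.43 ± 0.769 RPM in KO1, 6.03 ± 3.82 in KO2 and 4.55 ± 3.02 in controls (KO1 1.13, adjusted p = 0.078). Its KO2 mean held a low library, KO replicate 5 at 2.13 RPM, where the other KO libraries had 6.20 to 10.3 RPM. Ly86, the MD-1 partner of a Toll-like receptor homologue, was at 0 to 3.35 RPM in controls and 0.443 to 2.94 RPM in KO (0.47, adjusted p = 0.34).

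Aif1 and Cd33 were the core genes called lower. Aif1 encodes Iba1, a calcium-binding protein of macrophages and microglia. It stood at 359 to 405 RPM in controls (median 379), at 279, 285 and 238 RPM in KO1 and at 231, 222 and 237 RPM in KO2. All 6 KO libraries lay below all controls, and the spread within each group was small. The difference was -0.62 (SE 0.07, adjusted p = 7.7e-06), with -0.52 in KO1 (adjusted p = 0.00018) and -0.73 in KO2 (adjusted p = 9.2e-06). Per kilobase of exon, Aif1 was the most abundant member in controls, at 250 RPM per kb, where Lyz2 had 21.1, Cd68 3.82 and Csf1r 3.67. Its fall went with that of the late spermatid markers, given above, and the part of those cells in its level was not tested.

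The deposited table places Aif1 on chromosome 17 (mm10, 35170991 to 35176068, minus strand). Its promoter is shown because Aif1 was the most abundant member per kilobase of exon and was called lower. The window holds the 250 bases before the RefSeq start, chr17:35176053-35176302 (GRCm38.p6, minus strand), read 5′ to 3′ along the gene, with the only match to the searched motifs in capitals. That match is GAGGAA, the purine-rich core bound by PU.1, a factor of myeloid cells, on the opposite strand, starting 7 bases before the start site.
Aif1: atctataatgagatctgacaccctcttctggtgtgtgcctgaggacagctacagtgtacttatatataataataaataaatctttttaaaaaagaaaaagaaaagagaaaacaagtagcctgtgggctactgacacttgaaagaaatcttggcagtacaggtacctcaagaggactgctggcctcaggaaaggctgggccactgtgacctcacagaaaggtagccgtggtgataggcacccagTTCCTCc
GAGGAA was searched on both strands in all RefSeq windows of this length, and 23.3% of 32817 held it. Among the 43 windows of the 35 members with an entry, 18 did (41.9%). A match is a description of the letters in the window and not a binding site.

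Cd33, a sialic acid-binding lectin of myeloid cells, stood at 7.45 to 16.0 RPM in controls. It was at 0.981, 1.62 and 9.16 RPM in KO1 and 5.76, 6.38 and 2.07 RPM in KO2, so that all but KO replicate 3 lay below all controls. It fell by 1.35 (SE 0.33, adjusted p = 0.0047). In KO1 the difference was -1.60 (adjusted p = 0.0062) and, without KO replicate 3, -2.32 (adjusted p = 0.00035). Without KO replicate 1 or 2 that call was lost (-1.14, adjusted p = 0.0636, and -1.34, adjusted p = 0.0503). In KO2 it was -1.09 (adjusted p = 0.076).

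Of the 3 Fc gamma receptors, which bind IgG on immune complexes, 1 rose. Fcgr1, the high-affinity receptor, was at 0 in 3 of 7 controls and at most 0.757 RPM in the others. It stood at 3.36, 2.98 and 2.45 RPM in KO1 and at 1.99, 1.82 and 1.38 RPM in KO2. All 6 KO libraries exceeded all controls, with at most 24 reads in a library. Fcgr1 passed the filter of 1 RPM only through its KO values. The difference was 1.38 (SE 0.26, adjusted p = 0.00056), with 1.64 in KO1 (adjusted p = 0.00075) and 1.12 in KO2 (adjusted p = 0.021), the last lost without KO replicate 4 (adjusted p = 0.0811) or 5 (adjusted p = 0.0818).

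Fcgr3, a low-affinity activating receptor, varied more within groups than between them. Its controls ran from 13.3 to 74.1 RPM, with WT replicate 1 and Het replicate 2 above 70 RPM, and KO replicate 4 was at 88.6 RPM. The difference was 0.04 (95% interval -0.76 to 0.84, adjusted p = 0.95), and its sign turned when 1 of several libraries was left out, from -0.27 to 0.26. Fcgr2b, the inhibitory receptor, differed by 0.19 (-0.41 to 0.79, adjusted p = 0.67). Fcer1g, the chain that Fcgr1 and Fcgr3 signal through, thus rose beside Fcgr1 and without a called change in Fcgr3.

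All 4 genes of resident and scavenging macrophages were called higher. Cd163, the haemoglobin scavenger receptor, was at 0 to 3.41 RPM in controls (median 1.21). It stood at 9.11, 7.95 and 8.51 RPM in KO1 and at 2.66, 2.58 and 1.49 RPM in KO2. KO1 lay above all controls and KO2 within them. The difference was 1.31 (SE 0.37, adjusted p = 0.012), 2.10 in KO1 (adjusted p = 0.00029) and 0.53 in KO2 (adjusted p = 0.35). KO2 against KO1 was -1.57 (95% interval -2.44 to -0.70, adjusted p = 0.12).

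F13a1, the A subunit of coagulation factor XIII made by macrophages, had the same order. It was at 12.5 ± 4.91 RPM in controls, at 29.0, 32.6 and 35.5 RPM in KO1 and at 22.8, 9.26 and 15.8 RPM in KO2. It rose by 0.86 (SE 0.28, adjusted p = 0.029) and in KO1 by 1.38 (adjusted p = 0.0018). The call over all KO libraries was lost if any of KO 1 to 3 or Het 1, 3 and 4 was left out (adjusted p from 0.0549 to 0.0806), and the sign turned under Leydig scaling (-0.04). Mrc1, the mannose receptor CD206, ran from 21.6 to 30.0 RPM in controls and stood at 41.5, 48.8 and 36.3 RPM in KO1 and 35.9, 31.1 and 24.3 RPM in KO2. KO replicate 6 fell among the controls and the other 5 above them. It rose by 0.48 (SE 0.15, adjusted p = 0.021), a call lost without KO replicate 2 (0.39, adjusted p = 0.0608), and by 0.72 in KO1 (adjusted p = 0.0037). Its sign turned under Sertoli (-0.23, adjusted p = 0.265) and Leydig (-0.44, adjusted p = 0.0289) scaling. Under Leydig scaling it was thus called lower, as were 63.6% of all genes.

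Folr2, the folate receptor beta of resident macrophages, rose in both sets. It stood at 1.10 to 3.14 RPM in controls, at 5.18, 11.1 and 5.89 RPM in KO1 and at 4.65, 5.92 and 5.16 RPM in KO2. No KO library overlapped a control. The difference was 1.27 (SE 0.24, adjusted p = 0.0007), with 1.46 in KO1 (adjusted p = 0.0016) and 1.09 in KO2 (adjusted p = 0.02). The KO2 call was lost without KO replicate 5 (adjusted p = 0.0951) or 6 (adjusted p = 0.0641).

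The 3 tested genes linked to lipid handling and phagocytosis were called higher. Trem2, a lipid-sensing receptor that signals through Tyrobp, was at 0 to 2.66 RPM in controls. It stood at 13.6, 4.97 and 4.25 RPM in KO1 and at 4.87, 10.6 and 3.44 RPM in KO2, with all 6 above every control. It rose by 1.67 (SE 0.34, adjusted p = 0.0011), with 1.77 in KO1 (adjusted p = 0.0048) and 1.57 in KO2 (adjusted p = 0.018). The KO1 call was lost without KO replicate 1 (1.31, adjusted p = 0.0534) and the KO2 call without KO replicate 5 (1.18, adjusted p = 0.147), the highest library of each set.

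Spp1, the secreted phosphoprotein osteopontin, was at 0 to 5.05 RPM in controls, with Het replicate 1 highest. It stood at 8.97, 6.46 and 15.2 RPM in KO1 and 2.88, 2.13 and 4.94 RPM in KO2. It rose by 1.76 (SE 0.41, adjusted p = 0.0036), by 2.44 in KO1 (adjusted p = 0.00063), and gave 1.08 in KO2 (adjusted p = 0.12). Lgals3, galectin-3, a sugar-binding protein of phagocytes, rose by 0.91 (adjusted p = 0.027), from 1.22 ± 0.871 to 2.92 ± 0.814 RPM. That call was lost without any 1 of Het replicates 3 and 4 and KO replicates 2, 3 and 5 (adjusted p from 0.0503 to 0.0608). Gpnmb, a transmembrane glycoprotein of lipid-laden macrophages, could not be tested, having 0.370 ± 0.462 RPM in controls and 1.36 ± 1.65 in KO, of which KO replicate 4 alone reached 4.65 RPM.

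The receptor Csf1r and its ligand Csf1 were called higher, and the other ligand Il34 was called in KO1. Csf1r, which macrophages need for survival, ran from 13.2 to 26.2 RPM in controls (median 20.9). It stood at 48.1, 50.6 and 40.7 RPM in KO1 and at 34.6, 32.3 and 27.4 RPM in KO2. Every KO library exceeded all controls and every KO1 library exceeded all KO2 libraries. The difference was 0.84 (SE 0.17, adjusted p = 0.00094), with 1.12 in KO1 (adjusted p = 0.00021) and 0.57 in KO2 (adjusted p = 0.044). The KO2 call was lost in 10 of 13 fits with 1 library left out, all but those without WT replicate 1, WT replicate 2 or KO replicate 3 (adjusted p from 0.0514 to 0.158). The sign of the difference over all KO libraries turned under Leydig scaling (-0.08). In the table Csf1r overlaps Hmgxb3, which had 45.8 RPM in controls and 62.4 RPM in KO, and the strand of counting is not known.

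Csf1, the macrophage colony-stimulating factor, ran from 0.505 to 4.13 RPM in controls. It stood at 3.92, 22.1 and 11.0 RPM in KO1 and 5.98, 8.65 and 3.56 RPM in KO2, with KO replicate 2 far above the rest. It rose by 1.54 (SE 0.35, adjusted p = 0.0028) and in KO1 by 1.90 (adjusted p = 0.0026), or by 2.48 without KO replicate 1 (adjusted p = 0.0006). In KO2 the difference was 1.18 (adjusted p = 0.066). Il34 was at 1.54 ± 0.777 RPM in controls and 3.54 ± 2.03 in KO (0.77, adjusted p = 0.057). Its rise of 1.03 in KO1 (adjusted p = 0.041) was lost without any 1 of WT replicates 1 and 2, Het replicates 1, 3 and 4 and KO replicates 2 and 3 (adjusted p from 0.0504 to 0.27). Il34 overlaps the predicted genes Gm15894 and Gm15895.

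**Figure D4:**
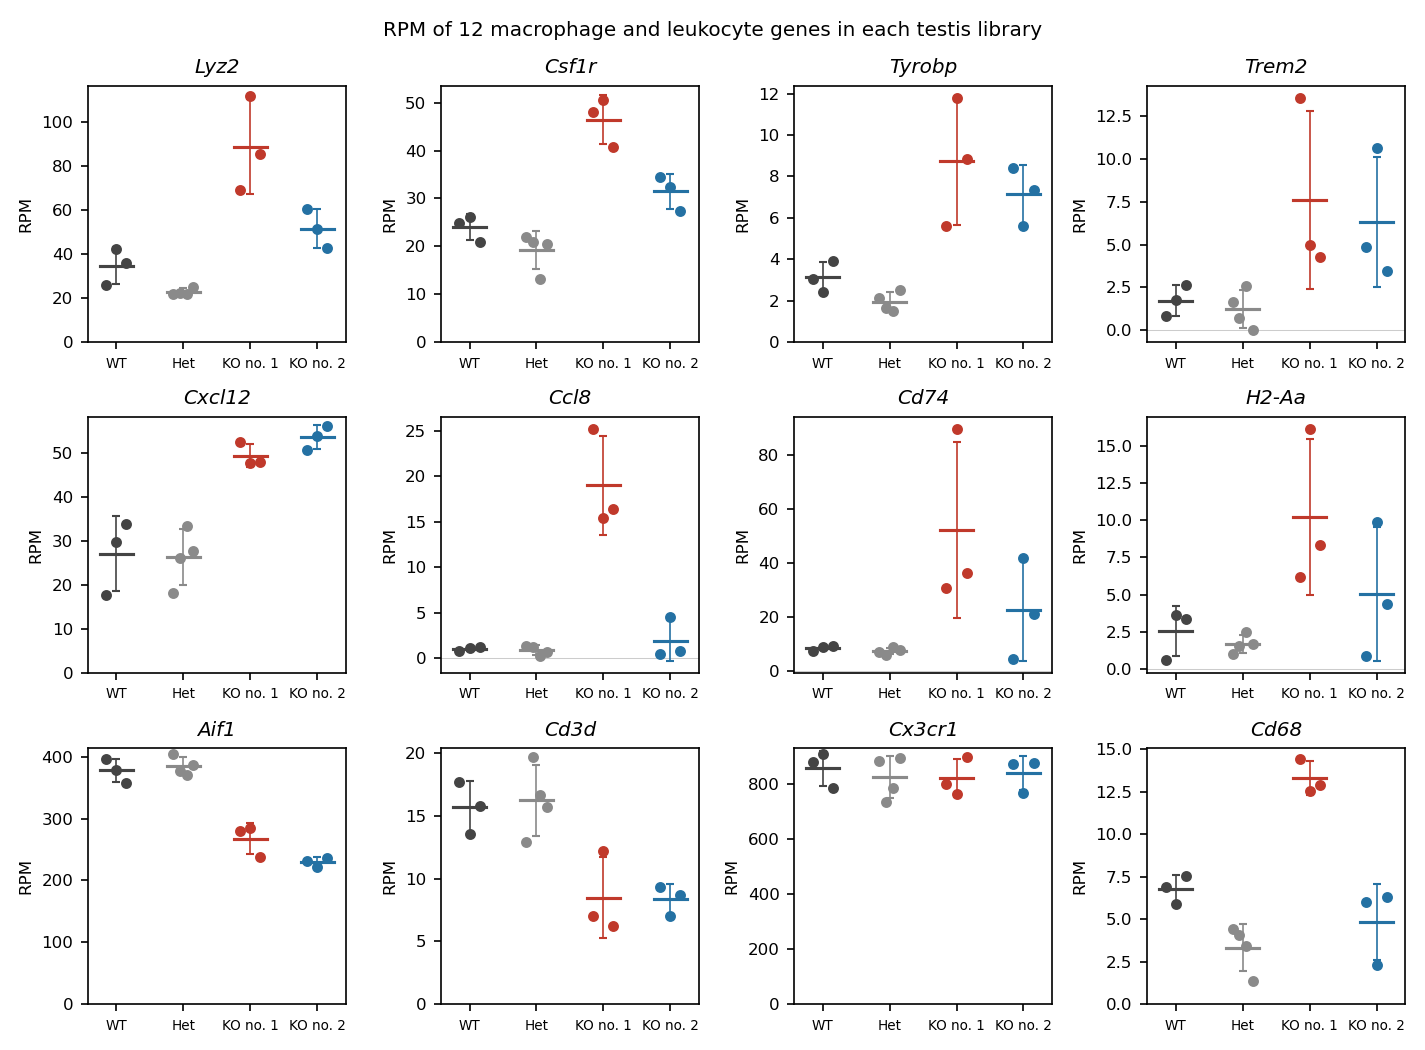
RPM of 12 genes in each library by genotype and title number, on linear axes, with 1 point per library and the mean ± SD of each group. All 6 KO libraries exceed the controls for Lyz2, Csf1r, Tyrobp, Trem2 and Cxcl12 and lie below them for Aif1 and Cd3d. Ccl8 and Cd68 exceed all controls in every KO1 library, and Cx3cr1 lies between 734 and 907 RPM in all 13 libraries.

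Among chemokines, 2 of 4 tested genes were called higher. Ccl8, a ligand that draws monocytes and other leukocytes, separated KO1 from every other library. It stood at 0.275 to 1.39 RPM in controls (median 1.07), the highest being Het replicate 1, the single control that carries number 1. In KO1 it was at 25.2, 15.4 and 16.4 RPM, and in KO2 at 0.443, 4.55 and 0.804 RPM. KO replicate 5 lay above the controls, and KO replicates 4 and 6 lay among them. The difference was 3.34 in KO1 (SE 0.37, adjusted p = 7.4e-06), a 10.2-fold change of RPM + 1, and 0.34 in KO2 (95% interval -0.42 to 1.11, adjusted p = 0.59). KO2 was lower than KO1 by a log2 difference of -3.004 (SE 0.43, 95% interval -3.91 to -2.10, adjusted p = 0.0031), with all 3 KO2 libraries below all 3 KO1 libraries. Without KO replicate 5 that difference was -3.60 (adjusted p = 0.00012). Over all 6 KO libraries it was 1.84 (SE 0.54, adjusted p = 0.016), where KO2 alone missed the threshold, and with title number as a term it missed it too (1.11, adjusted p = 0.0569).

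The table places Ccl8 on chromosome 11 (82115185 to 82116799, plus strand), next to other genes of its family. Its promoter window is shown as that of the only member called between KO1 and KO2. The window is chr11:82114935-82115184 (GRCm38.p6, plus strand), read 5′ to 3′, and the capitals mark a GAGGAA on the opposite strand, which starts 240 bases before the start site.
Ccl8: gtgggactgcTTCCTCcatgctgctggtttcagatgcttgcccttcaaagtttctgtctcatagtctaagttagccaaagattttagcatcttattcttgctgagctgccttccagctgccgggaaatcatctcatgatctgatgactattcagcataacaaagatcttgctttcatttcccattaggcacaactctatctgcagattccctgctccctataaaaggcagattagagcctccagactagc
The related chemokines Ccl2 and Ccl7 were too low to test. Ccl2 had at most 3 reads in a library and was at 0 in 5 controls and 3 KO libraries, and Ccl7 had at most 8 reads. Ccr2, the receptor of Ccl2 and Ccl7 on inflammatory monocytes, was at 0.520 ± 0.618 RPM in controls and 0.523 ± 0.773 in KO, with at most 13 reads.

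Cxcl12, which guides leukocytes and stem cells through Cxcr4, rose in KO1 and in KO2. It ran from 17.6 to 33.9 RPM in controls (median 27.8) and stood at 52.4, 47.7 and 47.9 RPM in KO1 and 50.7, 53.9 and 56.0 RPM in KO2. The 6 KO values were close to each other and above all controls. The difference was 0.96 (SE 0.15, adjusted p = 0.00012), with 0.90 in KO1 (adjusted p = 0.0017) and 1.02 in KO2 (adjusted p = 0.0012), and KO2 differed from KO1 by 0.12 (95% interval -0.34 to 0.58). Cxcl12 is made mainly by stromal, endothelial and Sertoli cells. In KO1 its sign turned under Leydig scaling (-0.15), where the median of all genes was -0.80.

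The pair Cx3cl1 (fractalkine) and its receptor Cx3cr1 was not called in any comparison. Cx3cl1 was at 3.17 ± 1.57 RPM in controls, 3.01 ± 1.94 in KO1 and 5.97 ± 0.879 in KO2, where every library exceeded all controls (0.84, adjusted p = 0.16). Cx3cr1 stood at 837 ± 68.1 RPM in controls and 829 ± 59.6 in KO, a difference of -0.01 (95% interval -0.16 to 0.13). Per kilobase of exon it was second to Aif1 in controls, at 186 RPM per kb. The gene spans 119901616 to 120068283 on chromosome 9 in the table, a span set by 1 long transcript, which covers 166668 bases but adds only 12 of the gene's 4505 exon bases. Wdr48 (466 to 645 RPM), Gorasp1, Ttc21a, Csrnp1 and Xirp1 overlap that span. The counting rule (whole span or exons) was not given in the sources used here, so the Cx3cr1 value is uncertain as a measure of macrophages.

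The 4 tested MHC class II genes of the set rose together in KO1 and were uneven in KO2. Cd74, the invariant chain that holds class II molecules until antigen is loaded, ran from 6.02 to 9.24 RPM in controls. It stood at 30.7, 89.6 and 36.1 RPM in KO1 and at 4.43, 41.9 and 21.1 RPM in KO2. KO replicate 4 lay below all controls and the other 5 above them. The difference was 1.68 (SE 0.40, adjusted p = 0.0039), 2.41 in KO1 (adjusted p = 0.00037) and 0.95 in KO2 (adjusted p = 0.14). H2-Aa, the alpha chain of the I-A molecule, had 0.607 to 3.62 RPM in controls, 6.17, 16.2 and 8.34 RPM in KO1 and 0.886, 9.87 and 4.36 RPM in KO2. It rose by 1.31 (SE 0.39, adjusted p = 0.018), a call lost without KO replicate 2 (1.06, adjusted p = 0.0533), and by 1.88 in KO1 (adjusted p = 0.0046).

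The beta chains H2-Ab1 and H2-Eb1 were called in KO1 and neither in KO2 nor over all KO libraries (0.92, adjusted p = 0.0061, and 1.49, adjusted p = 0.026). H2-Ab1 ran from 12.95 to 25.6 RPM in controls and stood at 26.3, 47.0 and 30.9 RPM in KO1 and 15.7, 19.7 and 18.5 RPM in KO2. H2-Eb1 ran from 1.77 to 7.70 RPM in controls and stood at 5.60, 29.2 and 11.9 RPM in KO1 and 2.22, 12.5 and 8.15 RPM in KO2. KO replicate 2 was the highest library and KO replicate 4 the lowest KO library for all 4 genes. The KO1 call of H2-Ab1 was lost without KO replicate 2 (adjusted p = 0.0709), and that of H2-Eb1 without KO replicate 2 (adjusted p = 0.218) or 3 (adjusted p = 0.0731). None of the 4 differed between KO2 and KO1 past the threshold (H2-Ab1 -0.88, adjusted p = 0.18). Ciita, the master activator of class II genes, had at most 9 reads in a library and was at 0 in 3 controls and 3 KO libraries.

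The promoters of H2-Aa and H2-Eb1 are shown because the tested class II members moved together in KO1 and class II promoters share known upstream boxes. The windows are chr17:34287824-34288073 (minus strand) for H2-Aa and chr17:34305617-34305866 (plus strand) for H2-Eb1, both GRCm38.p6 and read 5′ to 3′ along the gene. Capitals mark GCAAC, from the X box bound by RFX factors, and GATTGG, the Y box bound by NF-Y, or its reverse complement.
H2-Aa: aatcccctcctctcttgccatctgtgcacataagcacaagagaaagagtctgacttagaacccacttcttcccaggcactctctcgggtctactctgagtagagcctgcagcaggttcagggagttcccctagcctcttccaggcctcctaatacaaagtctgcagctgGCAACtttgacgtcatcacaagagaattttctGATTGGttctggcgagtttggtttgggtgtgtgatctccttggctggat
H2-Eb1: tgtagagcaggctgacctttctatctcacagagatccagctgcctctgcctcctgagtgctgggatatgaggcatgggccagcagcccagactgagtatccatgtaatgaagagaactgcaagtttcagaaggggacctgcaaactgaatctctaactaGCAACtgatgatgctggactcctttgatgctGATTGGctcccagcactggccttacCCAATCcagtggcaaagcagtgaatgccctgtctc
In H2-Aa, GCAAC starts 81 bases and GATTGG 49 bases before the start site. In H2-Eb1 they start 91 and 60 bases before it, and a GATTGG on the opposite strand starts at 35. Over all 32817 windows, 14.5% held GATTGG on either strand and 29.9% GCAAC, against 18.6% (8 of 43) and 25.6% (11 of 43) of the members' windows.

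The 2 tested T cell genes moved in opposite directions. Cd3d, a chain of the T cell receptor complex, ran from 12.9 to 19.7 RPM in controls and stood at 7.01, 12.2 and 6.22 RPM in KO1 and 9.31, 6.98 and 8.72 RPM in KO2. All KO libraries lay below all controls. The difference was -0.87 (SE 0.18, adjusted p = 0.0011), with -0.88 in KO1 (adjusted p = 0.0069) and -0.86 in KO2 (adjusted p = 0.014). The KO1 call was lost without KO replicate 3 (-0.71, adjusted p = 0.0619) and the KO2 call without KO replicate 5 (-0.75, adjusted p = 0.0877). Cd3e, the partner chain that every T cell receptor complex also holds, had at most 9 reads in a library and was at 0 in 4 controls and 2 KO libraries. Per kilobase of exon in controls, Cd3d had 8.81 RPM and Cd3e 0.0363. Lck, the kinase that starts T cell receptor signalling, rose by 0.83 (SE 0.26, adjusted p = 0.022), from 2.55 ± 1.22 RPM (n = 7) to 5.17 ± 1.44 RPM (n = 6), a call lost without KO replicate 5 (0.76, adjusted p = 0.0506). It was also lost with median-of-ratios scaling, quantile normalization, the replicate block, title number 2 only, or WT or Het alone as control (adjusted p from 0.051 to 0.132). Under the 3 marker scalings it was lost too (adjusted p from 0.193 to 0.761), with 0.10 under Leydig scaling.

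Other genes of the same cell types were counted from lists made for this comparison. Of 50 tested macrophage genes outside the set (69 listed), 20 were called higher and none lower, with a median of 0.66. The shares to read such counts against are the 18.4% and 6.18% of all genes called higher and lower, and the median of 0.16. Apoe, a lipid carrier made by macrophages and steroid-making cells, rose by 1.30 (SE 0.18, adjusted p = 3.6e-05), from 253 ± 74.8 RPM in controls to 790 ± 134 in KO1 and 468 ± 26.0 in KO2. C1qa, a chain of the complement component made mostly by macrophages, rose by 1.32 (adjusted p = 0.00017), from 5.82 ± 1.06 RPM to 21.3 ± 8.09 in KO1 and 12.4 ± 1.08 in KO2. Both were called in each KO set. Abca1, a cholesterol exporter, and Sirpa, the receptor for CD47, rose by 1.32 and 1.56. In the same list Il6 was at 0 in all 13 libraries and Tnf in 11.

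Of 21 tested pan-leukocyte genes outside the set 4 rose (Lcp1 1.65, Arhgdib 0.96, Evi2b 1.13 and Fermt3 0.81), a share near that of all genes, with a median of 0.37. Evi2b averaged 0.580 RPM in controls and passed the filter only through its KO values. Of 11 tested genes of class II antigen presentation, 3 rose (Cd83 1.88, Lgmn 0.88 and Ifi30 0.81) and Flt3, the receptor of dendritic cell precursors, fell by 1.22, and the median was -0.02. Cd83 averaged 0.596 RPM in controls, 6.72 in KO1 and 3.08 in KO2, and passed the filter only through its KO values. The class II genes H2-DMa (-0.02), H2-DMb1 (0.39) and H2-Ob (-0.07) of that list were not called. Of 14 tested chemokines and receptors 2 rose, the scavenging receptors Ackr2 (1.46) and Ackr3 (0.88), with a median of 0.13. Ackr2 averaged 0.199 RPM in controls and passed the filter only through its KO values. No gene was called in KO against control by limma among 4 tested genes of T and NK cells, 2 of granulocytes and mast cells, 1 of B and plasma cells and 2 of erythrocytes. At an unadjusted p under 0.05 there was 1 among them, Hdc, the histidine decarboxylase of mast cells (0.37). Over all genes, 18.4% were called higher even after adjustment. Most of those lists were too low to test, with S100a8, Cd8a and Ncr1 at 0 in all 13 libraries.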

How the data were processed

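Whole-testis RNA of 13 mice was sequenced, and the authors deposited 1 table of log2 RPM values per gene and library. Per the labels' protocols, about 2 ng of total RNA entered Smart-seq2 (PCR of 11 cycles). The submitters' processing notes name FastQC 0.11.8, Trim Galore 0.6.6 and the build mm10. The aligner, counting program and strand of counting were not given in the sources used here. The lowest deposited value in each library corresponds to 0.9 read and was read as 0. Above it, at least 99.96% of values were whole reads within 0.01 read. The 13 mitochondrial genes are listed at 0 in every library.

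RPM values were recovered and log2(RPM + 1) was fitted with limma 3.58.1 in R 4.3.3, with a mean-variance trend, over the 16235 genes averaging 1 RPM or more. Tests were two-sided and adjusted by Benjamini-Hochberg, with 0.05 as the threshold. The fits had 2 groups (KO and control), 3 groups (control, KO1 and KO2) or 3 genotypes. The first 2 kinds of comparison share their controls. The fits were tested on simulated data. Replicate libraries differed beyond sampling noise. Same-numbered replicates were not found to be paired. Levels between genes were compared per kb of GENCODE exons. Promoters are from RefSeq (GRCm38.p6), with an entry for 35 of 46 members.

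The members and gene lists were chosen with earlier results of these data known. All members are accounted for, and of each other leukocyte list up to 4 called genes with the lowest adjusted p are named. Hdc, Il6, Tnf, S100a8, Cd8a, Ncr1, H2-DMa, H2-DMb1 and H2-Ob were named after their values were seen. Alternatives covered the pseudocount, the filter on low values, scaling, limma-voom on recovered reads, a replicate block, the title number, WT or Het alone as control and leaving out each library. Scaling to marker lists of other cells was added after seeing the data.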

Additional observations from a re-analysis of the deposited data

Results flagged for a closer look

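Over 39 members in the Het, KO and control groups, 117 checks for a library far from the rest of its group picked out 8, and chance picks about 1 in 20. Within Het, replicate 4 stood apart for Lyz2 (25.1 RPM, where the others had 21.6 to 22.1), replicate 1 for Mrc1 (27.3 against 21.6 to 22.3) and for Cd163 (3.41 against 1.08 to 1.24), and replicate 3 for Csf1r (13.2 against 20.6 to 21.8). The last also stood apart from all other controls (13.2 RPM against 20.6 to 26.2). Het replicate 1 is the only control that carries title number 1, and Mrc1 and Cd163 were both called higher in KO1. Among all controls it was the highest for Cd163, while a WT library was higher for Mrc1. The part of title number in these values was not tested. Within KO, replicate 5 was low for Adgre1 (2.13 RPM against 6.20 to 10.3), replicate 1 was low for Fcer1g (3.22 against 5.54 to 6.71) and replicate 2 was high for Folr2 (11.1 against 4.65 to 5.92).

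The difference of KO from control was not the same in the 2 sets of KO libraries for Ccl8. By limma over all genes, KO2 differed from KO1 by -3.004 on the log2 scale (adjusted p = 0.0031), with all 3 KO1 libraries above all 3 KO2 libraries.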

How the results depend on the processing

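Depth limits the genes with few reads: Ptprc, Fcgr1, Ms4a6c and Lgals3 had at most 27, 24, 31 and 27 reads in a library. For KO against control (24 members higher, 3 lower), the count of members higher was 9 with a filter of 5 RPM (19 members tested). Of all genes passing that filter, 22.4% were called higher. The count was 15 with quantile normalization (9.01% of all genes), 7 with title number 2 only (5.36%) and 10 with WT alone as control (6.05%). It was 11, 8 and 14 when scaled to Sertoli, Leydig and endothelial markers (1.61%, 0.832% and 3.35% of all genes). The count lower was 6 with Leydig scaling (63.6% of all genes). For KO1 (25 and 3), the counts were 14 and 5 with Sertoli scaling (1.88% and 49.4% of all genes). With Leydig scaling they were 10 and 7 (1.09% and 60.4% of all genes). For KO2 (8 and 2), 5 were higher with quantile normalization (4.03% of all genes) and 1, 0 and 0 with Sertoli, Leydig and endothelial scaling, and 4 and 6 were lower with Sertoli and Leydig scaling. Of all genes in KO2, 0.487%, 0.296% and 0.493% were called higher and 23%, 46.4% and 4.65% lower under these 3 scalings. The filter tests fewer genes, title number 2 and WT alone use fewer libraries, and otherwise the cause was not tested. With 1 library left out, members higher numbered 17 to 25 for KO, 19 to 26 for KO1 and 3 to 10 for KO2, and members lower numbered 3, 2 to 3 and 1 to 3. Of all genes, 14.6% to 18.5%, 10.4% to 17.3% and 3.12% to 8.89% were called higher in those fits. The shares lower were 5.45% to 6.25%, 3.54% to 5.91% and 3.23% to 4.8%.

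Replicate number does not appear to pair the libraries. Of 10 same-numbered pairs across groups, the correlation of deviations ran from -0.083 to 0.126 and was over 0.1 in 1, and 2 of 11 libraries correlated best with their own number. By title number, Het replicate 1 gave 0.126, 0.11 and 0.114 with the KO1 libraries and -0.13, -0.129 and -0.096 with the KO2 libraries. Deviations were taken from the mean of all KO libraries, so these sets of values are not independent. Controls of title number 2 gave both signs with either set. The part of title number was not tested. With replicate number as a block, members higher and lower were 24 and 3 for KO (17.5% and 6.07% of all genes) and 22 and 3 for KO1 (15% and 5.09%). For KO2 they were 0 and 0 (0.253% and 0.0801% of all genes), where replicates 5 and 6 lack a same-numbered control.

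Single genes turned in sign as follows, as log2 differences of KO against control. Fcgr3 gave -0.11 with median-of-ratios scaling, -0.19 with quantile normalization, -0.15 with limma-voom, -0.089 with the replicate block, -0.045 with Het alone as control, and -0.67, -0.87 and -0.31 with Sertoli, Leydig and endothelial scaling. It ran from -0.27 to 0.26 with 1 library left out. Cx3cr1 gave 0.11 with quantile normalization, 0.017 with title number 2 only and 0.012 with Het alone, and -0.044 to 0.010 with 1 library left out. Fcgr2b gave -0.064 with quantile normalization and -0.41, -0.59 and -0.10 with Sertoli, Leydig and endothelial scaling. Ly86 gave -0.030 with title number 2 only and Cx3cl1 -0.18 with WT alone. With Sertoli scaling Cd52 gave -0.21, Mrc1 -0.23, Cx3cl1 -0.16 and H2-Ab1 -0.22. With Leydig scaling Laptm5 gave -0.17, Cd52 -0.37, Cd68 -0.085, Adgre1 -0.029, Mrc1 -0.44, F13a1 -0.038, Csf1r -0.080, Cx3cl1 -0.33 and H2-Ab1 -0.43. In KO1, Mrc1 gave -0.12 with Sertoli scaling, and Laptm5 -0.12, Mrc1 -0.33, Cxcl12 -0.15 and H2-Ab1 -0.12 with Leydig scaling. In KO2, Csf1r gave -0.021 and -0.23 with Sertoli and Leydig scaling.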
